A study of Sus scrofa with 61 samples.

Results

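The genes described here are the sarcomeric myosin light chain isoforms MYL1, MYL2, MYL3, MYL4, MYL6B, MYL7 and MYLPF, read in fetal pig muscle. They were taken by name, as every array probe whose printed symbol is 1 of these 7. This gave 24 of the 60305 probes, namely 16 for MYL1, 5 for MYLPF and 1 each for MYL2, MYL6B and MYL7, while MYL3 and MYL4 are not analysed here because no probe carried their name. The MYL6B probe also stands on a gene list that the study drew from these same fetuses, which is no independent evidence for its change. A further 2 probes carry MLC2V, an earlier symbol of MYL2. They are given beside the MYL2 probe and are not counted among the 24.

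The study addressed how skeletal muscle matures in late gestation in breeds that differ in piglet survival. Longissimus muscle was taken by caesarean from 61 male fetuses on day 90 or day 110 of gestation, and the Cy3-labelled product of its total RNA was hybridized to a 1-colour array of 60-base probes, 1 array per fetus. LW is purebred Large White and MS is purebred Meishan, a Chinese breed whose piglets are born more mature. The dam of LWMS fetuses was Meishan and their sire Large White, and MSLW is the reciprocal cross. Day 90 had 8 fetuses of each genotype, and day 110 had 9 of LW, 7 of MS, 8 of LWMS and 5 of MSLW. Sows were inseminated with mixed semen of both breeds, so a litter held LW with MSLW fetuses or MS with LWMS fetuses. LW and MS fetuses thus never shared a sow. A difference between the breeds cannot be told apart from one between dams and litters. The sow of a fetus is not named in the labels used here, and littermates therefore count as separate fetuses. The p-values measure the spread between fetuses and not between litters. The part of litters in the age differences cannot be separated either.

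Myosin, the motor of the sarcomere, is built of heavy chains that each carry a pair of light chains, an essential one and a regulatory one. The light chains stiffen the lever arm of the motor and tune its speed, and each has isoforms that mark fibre type and stage. MYL1 is the essential and MYLPF the regulatory light chain of fast fibres. MYL3 and MYL6B are essential and MYL2 regulatory light chains of slow fibres, and MYL2 and MYL3 also serve the ventricle of the heart. MYL4 and MYL7 are the essential and regulatory light chains of the atrium, and MYL4 is also the essential light chain of embryonic skeletal muscle. Fetal muscle passes from embryonic to adult isoforms in late gestation.

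Of all probes, 42436 were kept, those well above background in 80% or more of the fetuses of some group. All 24 light chain probes were kept, and they were well above background on all 61 arrays and saturated on none. The number of probes well above background ran from 34346 to 45683 per array, and the arrays lay on 8 slides that each held 6 to 8 of the groups. All 8 marker genes of the skeletal muscle fibre were tested, and at the threshold given below 4 were higher and 3 lower on day 110. Their summed linear signal had a median of 1034000 on day 90 and 1154000 on day 110 for LW, and of 1082000 and 1183000 for MS. It was 1062000 and 1195000 for LWMS, and 1082000 and 1199000 for MSLW. In whole tissue, fewer cells of a type and less RNA per cell cannot be told apart. All values below are log2 of the quantile-normalized signal. A difference was called at an adjusted p-value of 1% in the moderated test of limma with Benjamini-Hochberg adjustment over all kept probes. The level of 1 probe cannot be set against that of another, so levels are compared only within a probe.

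The probe sequences are given to show how the probes overlap and how they are oriented to each other. Below, the first pair are MYLPF probes, with the stretch in capitals that the second reads on the opposite strand of the first (38 of 38 bases). The MYL2 probe follows, with its bases in capitals that are identical to the second MYLPF probe in the same orientation (29 of 40 aligned bases, against 10 of 20 at best on the opposite strand). The next pair are MYL1 probes that overlap by 56 bases and differ at 6 of them when aligned without a gap, with identical bases in capitals. These differences follow a single base of the first probe that the second lacks, and the bases after it match once it is skipped. The last is the first 50 of the 60 bases of the MYL7 probe, with a stop codon in capitals.
A_72_P035721 (MYLPF): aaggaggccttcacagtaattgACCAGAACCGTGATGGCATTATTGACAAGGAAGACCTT
A_72_P504419 (MYLPF): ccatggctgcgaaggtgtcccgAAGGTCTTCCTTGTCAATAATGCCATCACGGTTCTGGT
A_72_P434159 (MYL2): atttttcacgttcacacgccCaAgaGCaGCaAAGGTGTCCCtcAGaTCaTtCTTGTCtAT
A_72_P730078 (MYL1): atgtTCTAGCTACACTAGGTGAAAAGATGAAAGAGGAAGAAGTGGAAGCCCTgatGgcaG
A_72_P755981 (MYL1): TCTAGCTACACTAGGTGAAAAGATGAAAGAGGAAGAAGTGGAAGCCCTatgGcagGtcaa
O13226 (MYL7): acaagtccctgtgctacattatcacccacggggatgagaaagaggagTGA

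Among the 60305 probes of the array, 0 others shared a run of 25 bases with any of these 26 light chain probes on either strand. A_72_P504419 is antisense to the MYLPF probe printed above it, and the MYL2 probe A_72_P434159 has the orientation of that antisense probe. The mean log2 signal of A_72_P504419 over the fetuses was 10.01.

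The light chains did not move together between day 90 and day 110. MYL7 fell, and MYL6B and the probe named MYL2 rose, in each of the 4 genotypes. Of the 2 MLC2V probes, 1 did not pass in LWMS and 1 in MSLW. The MYLPF probes disagreed, and no MYL1 probe was called in the mean of the genotypes. Averaged over the genotypes, 8 of the 24 probes (33.3%) were called between the ages, 4 higher and 4 lower on day 110. Of all kept probes, 72.3% were called (37.3% higher, 35.0% lower). The called light chain probes were those of MYL7, MYL6B and MYL2 and all 5 of MYLPF. The smaller share depends on the scaling and is no result about the light chains as a set. With scaling to the 75th percentile in place of quantile normalization, all 24 were called, against 30428 of the 42436 kept probes. Of the 24, 16 read MYL1 alone, and 21 were among the 500 brightest kept probes. Within genotypes, 4 light chain probes were called for LW, 10 for MS, 4 for LWMS and 5 for MSLW, against 45.3%, 56.7%, 50.9% and 44.6% of all kept probes. Between the ages, the ranges of the fetuses were apart for 23.3% of all kept probes for LW, 37.9% for MS, 30.4% for LWMS and 28.0% for MSLW.

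**Figure D1:**
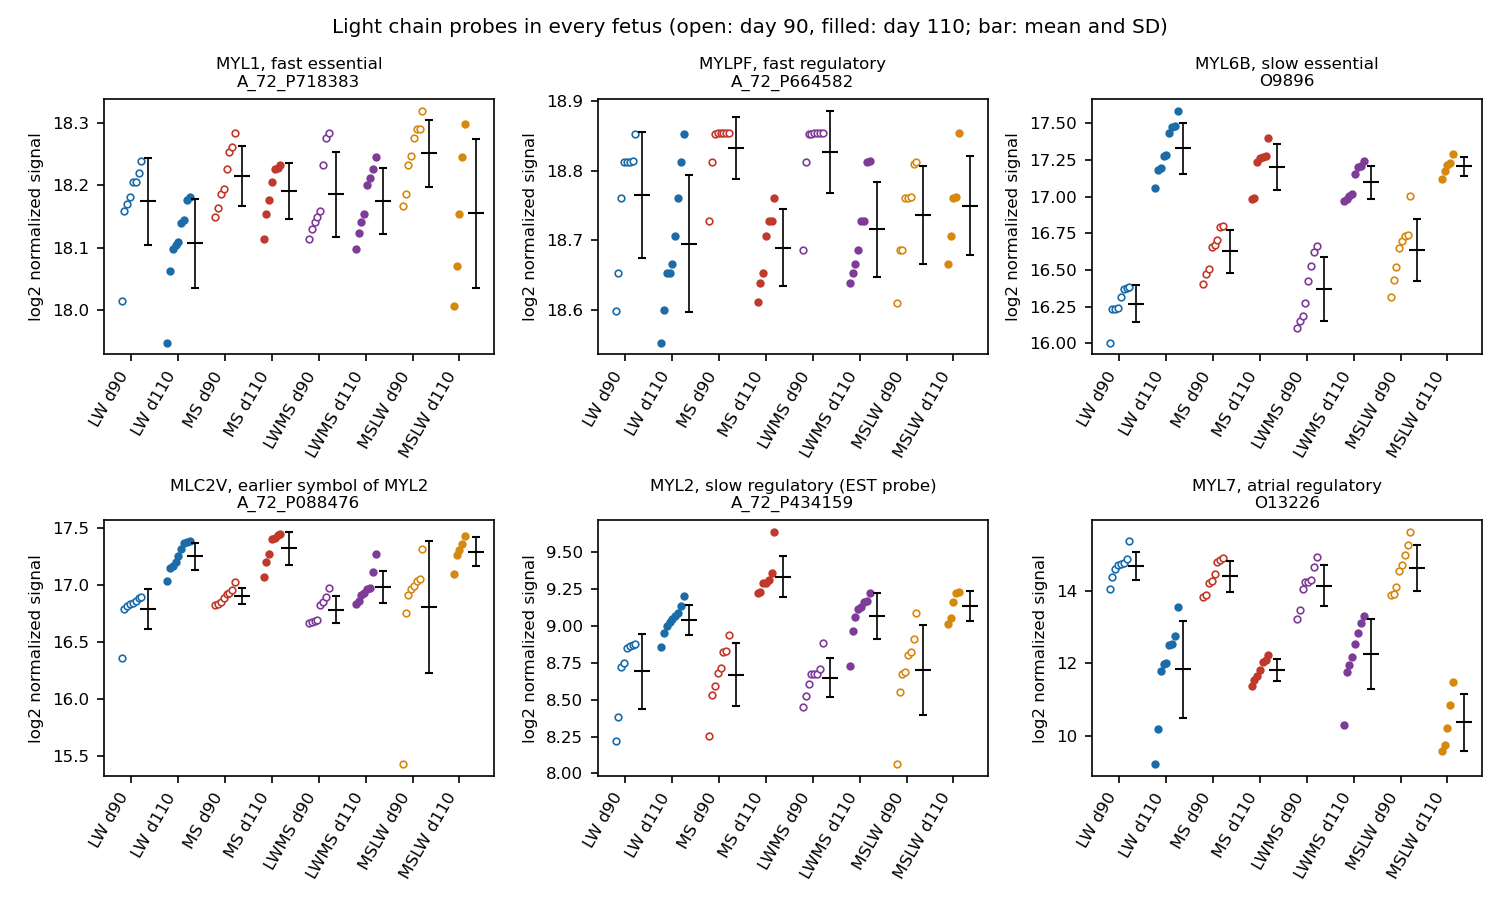
Log2 normalized signal (vertical axes, different in each panel) of the main probe of MYL1, MYLPF, MYL6B, MLC2V, MYL2 and MYL7 by group, with 1 point per fetus (open on day 90, filled on day 110) and bars for the mean and SD. In MYL7 the 5 MSLW fetuses of day 110 lie between 9.58 and 11.48, and in MYL6B every genotype is higher on day 110.

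MYL7, the atrial regulatory light chain, showed the largest change of the set. On day 90 its signal ran from 14.06 to 15.37 (median 14.72) for LW, 13.84 to 14.92 (median 14.36) for MS, 13.22 to 14.94 (median 14.25) for LWMS and 13.90 to 15.62 (median 14.62) for MSLW. On day 110 it ran from 9.22 to 13.55 (median 12.01) for LW, 11.39 to 12.23 (median 11.81) for MS and 10.30 to 13.31 (median 12.35) for LWMS. The 5 MSLW fetuses of day 110 stood at 10.84, 9.75, 11.48, 10.22 and 9.58. Day 110 lay wholly below day 90 in LW, MS and MSLW, while in LWMS the highest fetus of day 110 just passed the lowest of day 90.

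Averaged over the genotypes, MYL7 was lower on day 110 by 7.44-fold (log2 difference -2.90, SE 0.19, 95% interval -3.29 to -2.51) in limma (adjusted p = 3.2e-20). Of the 42436 kept probes, 269 had a more negative age difference. The fall was called in every genotype, with -2.85 (SE 0.36) for LW, -2.58 (SE 0.39) for MS, -1.89 (SE 0.38) for LWMS and -4.26 (SE 0.43) for MSLW. It was seen on each of the 8 array slides, from -3.89 to -1.79 within a slide. Under scaling to the 75th percentile in place of quantile normalization it was -2.62.

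Spread among fetuses was uneven on day 110. The SD of MYL7 was 1.34 for LW and 0.96 for LWMS, against 0.31 for MS and 0.79 for MSLW. In LW, replicates 1 and 9 stood at 10.19 and 9.22, below the other 7 fetuses. Without replicate 9, the age difference in LW was -2.52 and was still called.

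Ordered by mean, the 8 groups stood on day 90 at 14.69 for LW, 14.63 for MSLW, 14.40 for MS and 14.14 for LWMS, then on day 110 at 12.25 for LWMS, 11.84 for LW, 11.82 for MS and 10.37 for MSLW. Neighbours within day 90, and the first 3 groups of day 110, differed by less than the larger SD of the pair. MSLW of day 110 stood apart from MS of day 110 by more than the SD of either group.

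The reciprocal crosses differed in MYL7 on day 110, a call that some alternatives given below lost. Every LWMS fetus had a Meishan dam and every MSLW fetus a Large White dam, and no sow effect was fitted. Cross and litter therefore cannot be told apart here. The LWMS fetuses stood 1.88 above the MSLW fetuses (SE 0.43, 95% interval 1.02 to 2.73), which is 3.67-fold (limma, adjusted p = 0.00698). It was the only light chain probe called between the crosses on day 110 (1 of 24), against 0.912% of all kept probes. On day 90 the difference was -0.48 (SE 0.38, 95% interval -1.24 to 0.27, adjusted p = 0.749), and limma called no light chain probe there (3 of 24 had an unadjusted p under 5%), against 0.500% of all kept probes.

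On the 5 slides that held both crosses on day 110, the LWMS fetus was higher on all 5, by 0.70 to 3.73. The groups overlapped at 1 fetus, LWMS replicate 2 (10.30), which lay below 2 of the 5 MSLW fetuses and on a slide with none of them. The call was lost with the slide as a block (1.84, adjusted p = 0.0129), with no filter on dim probes (adjusted p = 0.0106), and without MSLW replicate 2 (1.72, adjusted p = 0.0309), 4 (1.84, adjusted p = 0.0172) or 5 (1.68, adjusted p = 0.0345) of day 110.

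**Figure D2:**
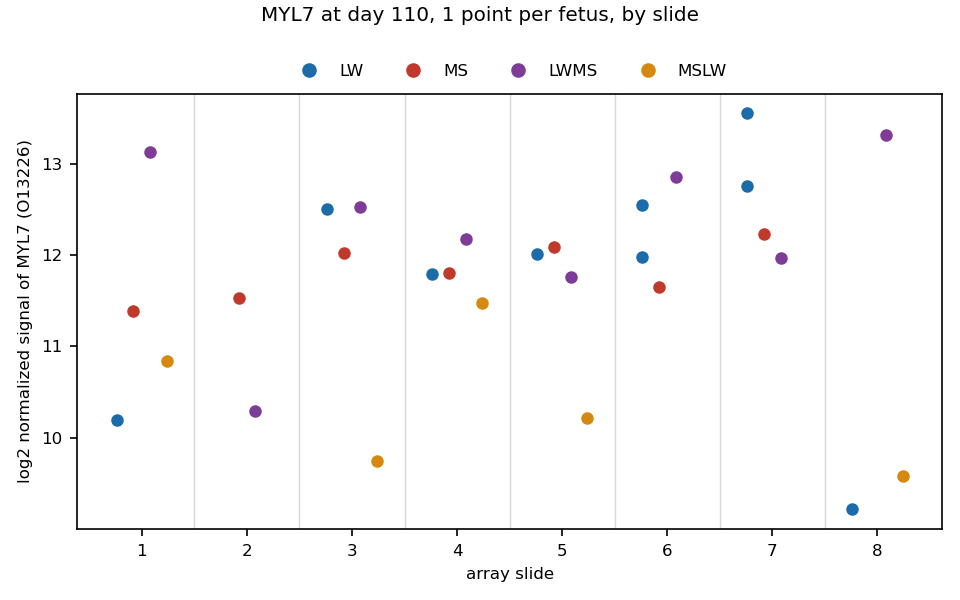
Log2 normalized signal of MYL7 (vertical axis) on day 110 by array slide (horizontal axis), with 1 point per fetus, coloured by genotype. Wherever a slide held both crosses (5 slides), LWMS is above MSLW, and LW fetuses at 10.19 and 9.22 lie on slides 1 and 8.

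The age difference of MYL7 did not pass the test of any difference among the 4 genotypes (moderated F = 5.91 with 3 degrees of freedom, adjusted p = 0.0267). In a model of both parents, the age difference was 1.28 higher with a MS than with a LW dam (95% interval 0.50 to 2.05, adjusted p = 0.0282) and -1.03 with a MS against a LW sire (95% interval -1.81 to -0.25, adjusted p = 0.186). Neither passed. LW and MS did not differ detectably in MYL7 on day 90 (-0.29, 95% interval -1.04 to 0.47) or day 110 (-0.02, 95% interval -0.78 to 0.74).

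MYL7 is known from the heart, so the markers of cardiac muscle are given beside it. Of 8 such markers, 5 had a probe and 4 were tested, and all 4 (MYBPC3, NPPA, TNNI3 and TBX5) were higher on day 110, with a median age difference of 0.57. GATA4, a cardiac transcription factor, was well above background on at most 7 of the 32 arrays of day 90 and 5 of the 29 of day 110. Of the 2 probes of NPPA, the atrial natriuretic peptide, 1 was well above background on all arrays and 1 on none. For TBX5, 1 probe was well above background on all arrays. Its other probe was so on 5 of the 32 arrays of day 90 and 6 of the 29 of day 110.

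The summed linear signal of the 4 markers had a median of 3292 (range 2843 to 3883) on day 90 and 5815 (3098 to 7258) on day 110 for LW, and of 2859 (2449 to 3914) and 4596 (3948 to 7215) for MS. It was 2485 (2150 to 3137) and 3720 (2727 to 4810) for LWMS, and 2941 (2250 to 3285, 7 fetuses) and 3266 (3166 to 4819) for MSLW. The crosses overlapped in this sum on day 110. As a sum of linear probe signals it is set mostly by TNNI3. The mean log2 signal of the main TNNI3 probe was 11.26 on day 90. Those of MYBPC3, NPPA and TBX5 were 6.79, 6.28 and 7.90. These 4 markers rose with age while MYL7 fell, and none of the 4 was called between the crosses on day 110 (differences of -0.10 to 0.09). The part of cardiac muscle in the MYL7 differences was not tested.

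MYL6B, the essential light chain of slow and developing fibres, rose in each genotype. On day 90 it ran from 16.00 to 16.39 (median 16.28) for LW, 16.40 to 16.80 (median 16.66) for MS, 16.10 to 16.66 (median 16.35) for LWMS and 16.31 to 17.01 (median 16.67) for MSLW. On day 110 it ran from 17.06 to 17.59 (median 17.28) for LW, 16.99 to 17.40 (median 17.26) for MS and 16.97 to 17.24 (median 17.09) for LWMS. The 5 MSLW fetuses of day 110 ran from 17.12 to 17.29 (median 17.22). The ages did not overlap in any of the 4 genotypes.

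Averaged over the genotypes the rise was 0.73 (SE 0.04, 95% interval 0.65 to 0.82), or 1.66-fold (limma, adjusted p = 1.15e-22). It was 1.06 (SE 0.08) for LW, 0.58 (SE 0.09) for MS, 0.73 (SE 0.08) for LWMS and 0.57 (SE 0.10) for MSLW, all called. The rise held on 8 of 8 slides, from 0.64 to 0.92. It was 1.27 under 75th percentile scaling.

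The breeds differed in MYL6B on day 90 and not detectably on day 110. MS stood 0.36 above LW on day 90 (SE 0.08, 95% interval 0.19 to 0.52, limma adjusted p = 0.00102), higher on 8 of 8 slides. It was the only light chain probe called between the breeds on that day (1 of 24), against 12.8% of all kept probes. On day 110 the difference was -0.13 (95% interval -0.30 to 0.04, adjusted p = 0.237). The lowest MS fetus of day 90, at 16.40, only just cleared the highest LW fetus of day 90, at 16.39. How many of all kept probes had the breeds apart on that day was not counted.

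The rise of MYL6B was smaller in MS than in LW (difference of the log2 rises -0.48, SE 0.12, 95% interval -0.72 to -0.25, limma adjusted p = 0.00395), and the age difference varied among the 4 genotypes (moderated F = 7.39, adjusted p = 0.00959). In each of these tests it was the only light chain probe called, against 5.95% and 3.17% of all kept probes. The result depended on the scaling, since with 75th percentile scaling the difference between the breeds was -0.020 (adjusted p = 0.952), and MS against LW on day 90 was 0.25 (adjusted p = 0.105). With the deposited log2 table, the median spot signal or another background correction the difference of the rises was -0.41. It did not pass (adjusted p = 0.0258, 0.0259 and 0.021). The F test was not recomputed under the alternatives. Ordered by mean, the groups stood on day 110 at 17.33 for LW, 17.21 for MSLW, 17.20 for MS and 17.10 for LWMS, then on day 90 at 16.64 for MSLW, 16.63 for MS, 16.37 for LWMS and 16.27 for LW. Within a day, neighbours in that order differed by less than the larger SD of the pair except MS and LWMS on day 90.

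MYL2, the regulatory light chain of slow fibres and of the ventricle, had 1 probe under its present symbol and 2 under the earlier one. The first has the orientation of the antisense MYLPF probe and may not read the MYL2 message. All 3 were higher on day 110. The MYL2 probe ran on day 90 from 8.22 to 8.88 (median 8.80) for LW, 8.26 to 8.94 (median 8.70) for MS, 8.45 to 8.89 (median 8.67) for LWMS and 8.06 to 9.09 (median 8.75) for MSLW. On day 110 it ran from 8.86 to 9.20 (median 9.05) for LW, 9.22 to 9.64 (median 9.29) for MS, 8.73 to 9.22 (median 9.12) for LWMS and 9.01 to 9.23 (median 9.16) for MSLW. The ages overlapped in LW, LWMS and MSLW and were apart in MS.

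Averaged over the genotypes the MYL2 probe rose by 0.47 (SE 0.05, 95% interval 0.37 to 0.57, limma adjusted p = 2.4e-12), and the rise was called in each, with 0.35 for LW, 0.66 for MS, 0.42 for LWMS and 0.43 for MSLW. It was 0.45 under 75th percentile scaling and positive on 8 of 8 slides. The orientation of this probe, shown above, is that of the antisense MYLPF probe A_72_P504419 and opposite to that of A_72_P035721. Its rise is therefore not taken here as that of the MYL2 message. On day 110 MS stood 0.29 above LW (95% interval 0.10 to 0.49, adjusted p = 0.013), which did not pass, and it was positive on 6 of 6 slides. It passed when any of 4 day-90 fetuses (MSLW replicate 2 or 8, LW replicate 8, MS replicate 8) was left out (adjusted p between 0.00511 and 0.00971), which lowers the estimate of the spread and leaves the difference itself as it is. The MS fetuses of day 110 had the highest mean, 9.34, above MSLW at 9.14, LWMS at 9.07 and LW at 9.04. The gap from MS to MSLW was larger than the SD of either group, and the other gaps of day 110 were smaller. The day-90 means lay between 8.65 for LWMS and 8.70 for MSLW, differing by less than their SDs.

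The probes under MLC2V gave the same direction. A_72_P088476 rose by 0.39 (SE 0.06, limma adjusted p = 1.56e-07) and A_72_P761471 by 0.42 (SE 0.05, adjusted p = 6.74e-12). The rise of A_72_P088476 was 0.46 for LW, 0.42 for MS and 0.48 for MSLW, all called, and 0.20 for LWMS (adjusted p = 0.154), which did not pass but was 0.78 and called (adjusted p = 2.34e-06) under 75th percentile scaling. The ages did not overlap in 2 of the 4 genotypes. Its day-90 range in MSLW reached down to 15.43 in replicate 8, where the next fetus stood at 16.75. Deviations from the group means of the MYL2 probe and of A_72_P088476 correlated at r = 0.53 over the 61 fetuses, which share array and slide. The rise of A_72_P761471 was 0.39 for LW, 0.61 for MS and 0.39 for LWMS, all called, and 0.29 for MSLW, which did not pass. With 75th percentile scaling the MLC2V probes rose by 0.92 and 0.94, and both were called in every genotype.

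MYLPF, the fast regulatory light chain, was among the brightest probes of the array. Its main probe A_72_P664582 ranked between 5 and 20 in every fetus. At that rank quantile normalization leaves few distinct values, so several fetuses share the top value of 18.85. On day 90 it ran from 18.60 to 18.85 for LW, 18.73 to 18.85 for MS, 18.69 to 18.85 for LWMS and 18.61 to 18.81 for MSLW. On day 110 it ran from 18.55 to 18.85 for LW, 18.61 to 18.76 for MS, 18.64 to 18.81 for LWMS and 18.67 to 18.85 for MSLW. The ages overlapped in every genotype.

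The 5 MYLPF probes disagreed on the age difference. A_72_P664582 (-0.08, limma adjusted p = 0.00168), O8741 (-0.10, adjusted p = 0.000259) and A_72_P616544 (-0.16, adjusted p = 4.42e-08) were called lower. A_72_P035721 (0.09, adjusted p = 0.00198) was called higher, but not with the deposited log2 table (0.07, adjusted p = 0.0385), the median spot signal or normexp background correction. The antisense probe A_72_P504419 was called higher by 0.38 (SE 0.04, adjusted p = 5.9e-12), from day-90 means of 9.81 to 9.90 to day-110 means of 10.06 to 10.33. The mean of the 5 probes gave 0.04 (adjusted p = 0.0607). With 75th percentile scaling all 5 rose, by 0.39 to 0.61, so that the direction of the lower calls depends on the scaling.

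MYL1, the fast essential light chain, was read by 16 probes, and limma called none of them for age, while 4 had an unadjusted p under 5%. Its main probe A_72_P718383 had group means between 18.11 in LW on day 110 and 18.25 in MSLW on day 90, and the ages overlapped in every genotype. Over the 16 probes the age difference ran from -0.06 to 0.10, and 1 probe was called lower with the slide as a block and 2 with each of the deposited log2 table, the median spot signal, normexp background correction and no moderation. The main probe was called lower with the slide as a block (-0.05, adjusted p = 0.00923) and with no moderation (-0.05, adjusted p = 0.00823). In MS, the probes A_72_P730078 (0.24, adjusted p = 0.0053) and A_72_P759212 (0.29, adjusted p = 0.00972) were called higher on day 110. All 16 rose under 75th percentile scaling, by 0.45 to 0.63.

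The scaling moved the bright light chains most. Among the 500 brightest kept probes, which held 21 of the 24, the median age difference was -0.06 after quantile normalization and 0.45 after 75th percentile scaling. Over all kept probes these medians were 0.04 and 0.09. All 24 probes were called under the second scaling, with MYL7 lower and the other 23 higher. The direction for MYL7, MYL6B and the probe named MYL2 was the same under both scalings.

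**Figure D3:**
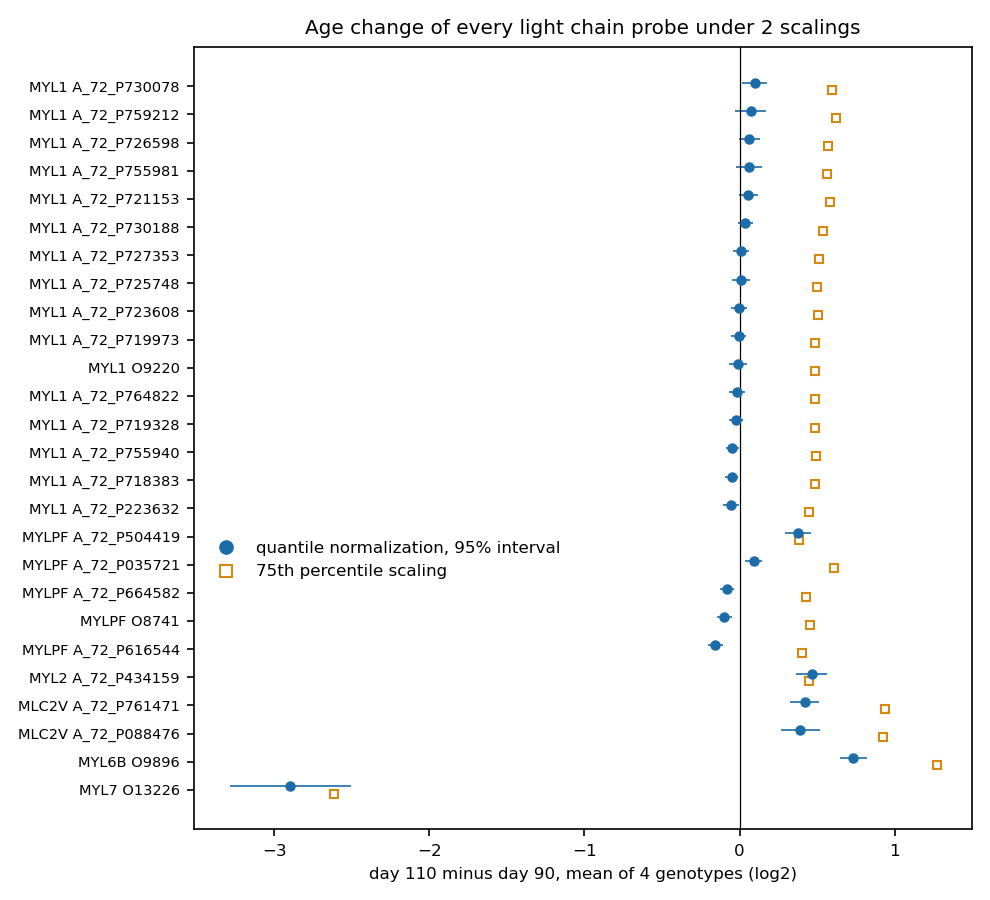
Age difference, day 110 minus day 90 on the log2 scale averaged over the 4 genotypes (horizontal axis), of each of the 24 light chain probes and the 2 MLC2V probes, with 95% intervals after quantile normalization (circles) and without after 75th percentile scaling (squares). MYL7 lies at -2.90 and -2.62, and the 16 MYL1 probes move from near 0 to between 0.45 and 0.63.

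Some probes of the fast light chains were higher in MS on day 110. Of the 24 probes, 8 (33.3%) were called and all 8 were higher in MS, against 29.0% of all kept probes (13.7% higher in MS). They were 6 of the 16 MYL1 probes and 2 of the 5 MYLPF probes. The other 10 MYL1 probes had positive differences that did not pass. The differences over the 16 probes ran from 0.01 to 0.42 with a median of 0.15. Fibroblast markers differed between these groups too. Of 5 such markers 4 were called higher in LW on day 110 and none higher in MS, and their summed linear signal ran from 117500 to 188600 (median 169900) in LW and from 75170 to 97780 (median 83900) in MS, without overlap. Their part in the breed differences was not tested.

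The MYL1 probe A_72_P759212 ran on day 110 from 15.99 to 17.32 in LW (median 16.63) and from 16.90 to 17.23 in MS (median 17.07), a difference of 0.42 (SE 0.10, limma adjusted p = 0.000418). A_72_P730078 ran from 17.16 to 17.91 in LW (median 17.44) and from 17.66 to 18.00 in MS (median 17.86), a difference of 0.41 (SE 0.08, adjusted p = 1.68e-05). Its overlapping neighbour A_72_P755981 ran from 16.94 to 17.71 in LW (median 17.27) and from 17.45 to 17.75 in MS (median 17.63) and differed by 0.35 (SE 0.08, adjusted p = 0.000334). In all 3 the LW fetuses spread more widely and overlapped the MS fetuses. The main probe, which is the brightest, differed by 0.08 (95% interval 0.0005 to 0.17, adjusted p = 0.104).

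In MYLPF, A_72_P035721 was 0.20 higher in MS on day 110 (SE 0.05, limma adjusted p = 0.00153) and the antisense A_72_P504419 was 0.28 higher (SE 0.08, adjusted p = 0.00467). The other 3 probes had differences of -0.01, -0.01 and -0.07 that did not pass. Under 75th percentile scaling 21 of the 24 probes were called higher in MS, including all 16 of MYL1 (0.34 to 0.76) and all 5 of MYLPF (0.28 to 0.54). That scaling called 12642 of the 42436 kept probes between the breeds on day 110, in either direction. It also moved bright probes in general. Among the 500 brightest kept probes, the median of MS minus LW on day 110 was -0.08 after quantile normalization. After 75th percentile scaling it was 0.26.

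The probes are listed with the base at which they start on their transcript. In MYL1 the 3 largest breed differences belonged to probes that start at bases 109, 411 and 415, while the probe at 385 differed by 0.08 (adjusted p = 0.122) and no probe from 579 on was called. This division was not sharp, since with the deposited log2 table A_72_P725748 at 686 was called (0.17, adjusted p = 0.00437) and A_72_P726598 at 559 was not (0.21, adjusted p = 0.015). In MYLPF the called A_72_P035721 starts at base 149, and the probes at 601 and 605 were not called. The lowest minus the highest start differed between the breeds by 0.31 in MYL1 and 0.27 in MYLPF.

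This was measured in other genes also. Over 1060 other transcripts with probes at least 200 bases apart, the median of that contrast was 0.10, and 66.3% were positive. On day 90 it was -0.02, with 45.4% positive. Between the ages it was 0.13, with 72.8% positive, beside 0.10 in MYL1 and 0.25 in MYLPF. Its median over those transcripts in each fetus ran on day 110 from 0.06 to 0.21 in MS and from -0.10 to 0.17 in LW. The part of this in the MYL1 and MYLPF differences was not tested.

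**Figure D4:**
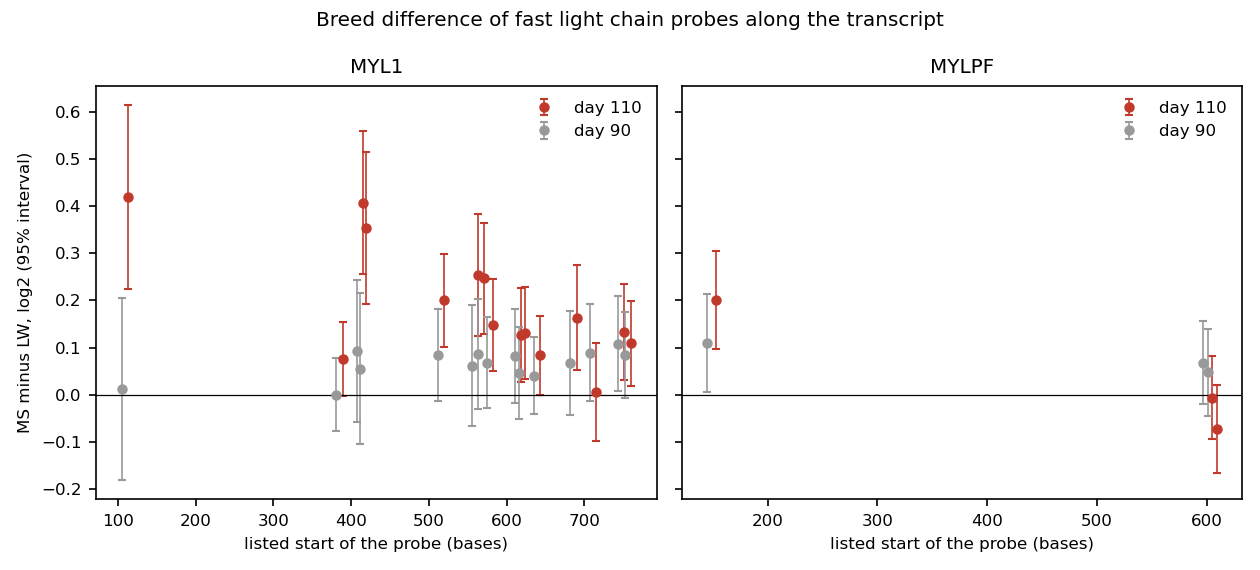
MS minus LW on the log2 scale (vertical axis, 95% intervals) against the listed start of the probe in bases (horizontal axis) for MYL1 and MYLPF on day 110 and day 90, with the points of the days set slightly apart. On day 110 the MYL1 probes at 109, 411 and 415 lie between 0.35 and 0.42, that at 385 lies at 0.08 and the later ones lie at 0.25 or below, and the antisense MYLPF probe and those with no listed start are not drawn.

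No light chain was called in the crossbred fetuses set against their parental breeds. Against the mean of LW and MS, 0 of the 24 probes were called in the mean of both crosses on day 90 or on day 110 (limma), where 0.0495% and 0.0778% of all kept probes were called. None of the 24 had an unadjusted p under 5%. The largest difference was that of MYL7 on day 110, -0.52 (95% interval -1.09 to 0.06, adjusted p = 0.774, unadjusted p = 0.0761). For the age difference by dam and by sire, 0 of 24 were called, against 3.05% and 0.462% of all kept probes. An unadjusted p was under 5% for 6 of the 24 by dam and 2 by sire, MYL6B (0.000823) and MYL7 (0.0102).

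The genes that work with the light chains were counted from lists by role, on the age difference averaged over the genotypes and with the main probe of each gene. Of 20 genes of the other light chains and of light chain regulation, 15 were tested. Of these, 3 were higher and 8 lower on day 110, with a median of -0.17. MYLK2, the skeletal muscle kinase of the regulatory light chain, rose by 1.00, and PPP1CB, a catalytic subunit of myosin phosphatase, by 0.47. MYL9, the smooth muscle regulatory light chain, fell by 1.57, and MYL6, the smooth muscle and non-muscle essential light chain, fell by 1.30. The summed signal of 5 smooth muscle markers had medians from 10730 to 15030 over the groups, and the part of smooth muscle in those falls was not tested. The split was 7 higher and 5 lower under 75th percentile scaling.

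Of 14 sarcomeric heavy chains and thick filament partners tested, 9 were higher and 2 lower, with a median of 0.28. MYBPH, a myosin binding protein, rose by 2.49 and MYH4, the fastest heavy chain, by 1.75. MYH3, the embryonic heavy chain, fell by 2.57 and MYBPC1, the slow myosin binding protein, fell by 0.12. With 75th percentile scaling the split was 11 higher and 1 lower.

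Of 10 slow fibre genes 6 were higher and 1 lower (median 0.34), with MYOZ2, a slow Z-disc protein, up by 1.45 and TPM3, the slow tropomyosin, up by 1.01. Of 11 fast fibre genes 10 were higher and 0 lower (median 0.61), with MYH4 again and MYBPC2, the fast myosin binding protein, up by 1.60. Under 75th percentile scaling 10 of the 10 slow and 11 of the 11 fast genes were higher. Over all kept probes 37.3% were higher and 35.0% lower. MYBPC1 was the slow gene that fell.

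Of 6 genes of the developing contractile apparatus 1 was higher and 5 lower (median -0.96). MYBPH was the one that rose. The age difference of TNNT2, the troponin T of embryonic muscle and heart, was -3.09 and that of MYH3 -2.57, beside -2.90 for MYL7. The split was 2 higher and 4 lower under 75th percentile scaling. On day 110 MS minus LW was -2.87 (SE 0.21) for MYH3 and -1.22 (SE 0.19) for TNNT2, while it was -0.02 (SE 0.38) for MYL7.

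Markers of other cells in the muscle moved with age as well. All 5 fibroblast markers fell (median -1.44), 3 of 4 adipocyte markers fell and none rose (median -0.53), and of 5 smooth muscle markers 1 rose and 1 fell (median -0.03). Of 5 endothelial markers 1 rose and 3 fell (median -0.98), and of 4 leukocyte markers none rose and 1 fell (median -0.12). Of 3 Schwann cell markers 2 rose and none fell (median 0.45), the 1 satellite cell marker rose (0.96), and of 2 red blood cell markers 1 rose and none fell (median 0.07). Their part in the light chain differences was not tested.

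**Figure D5:**
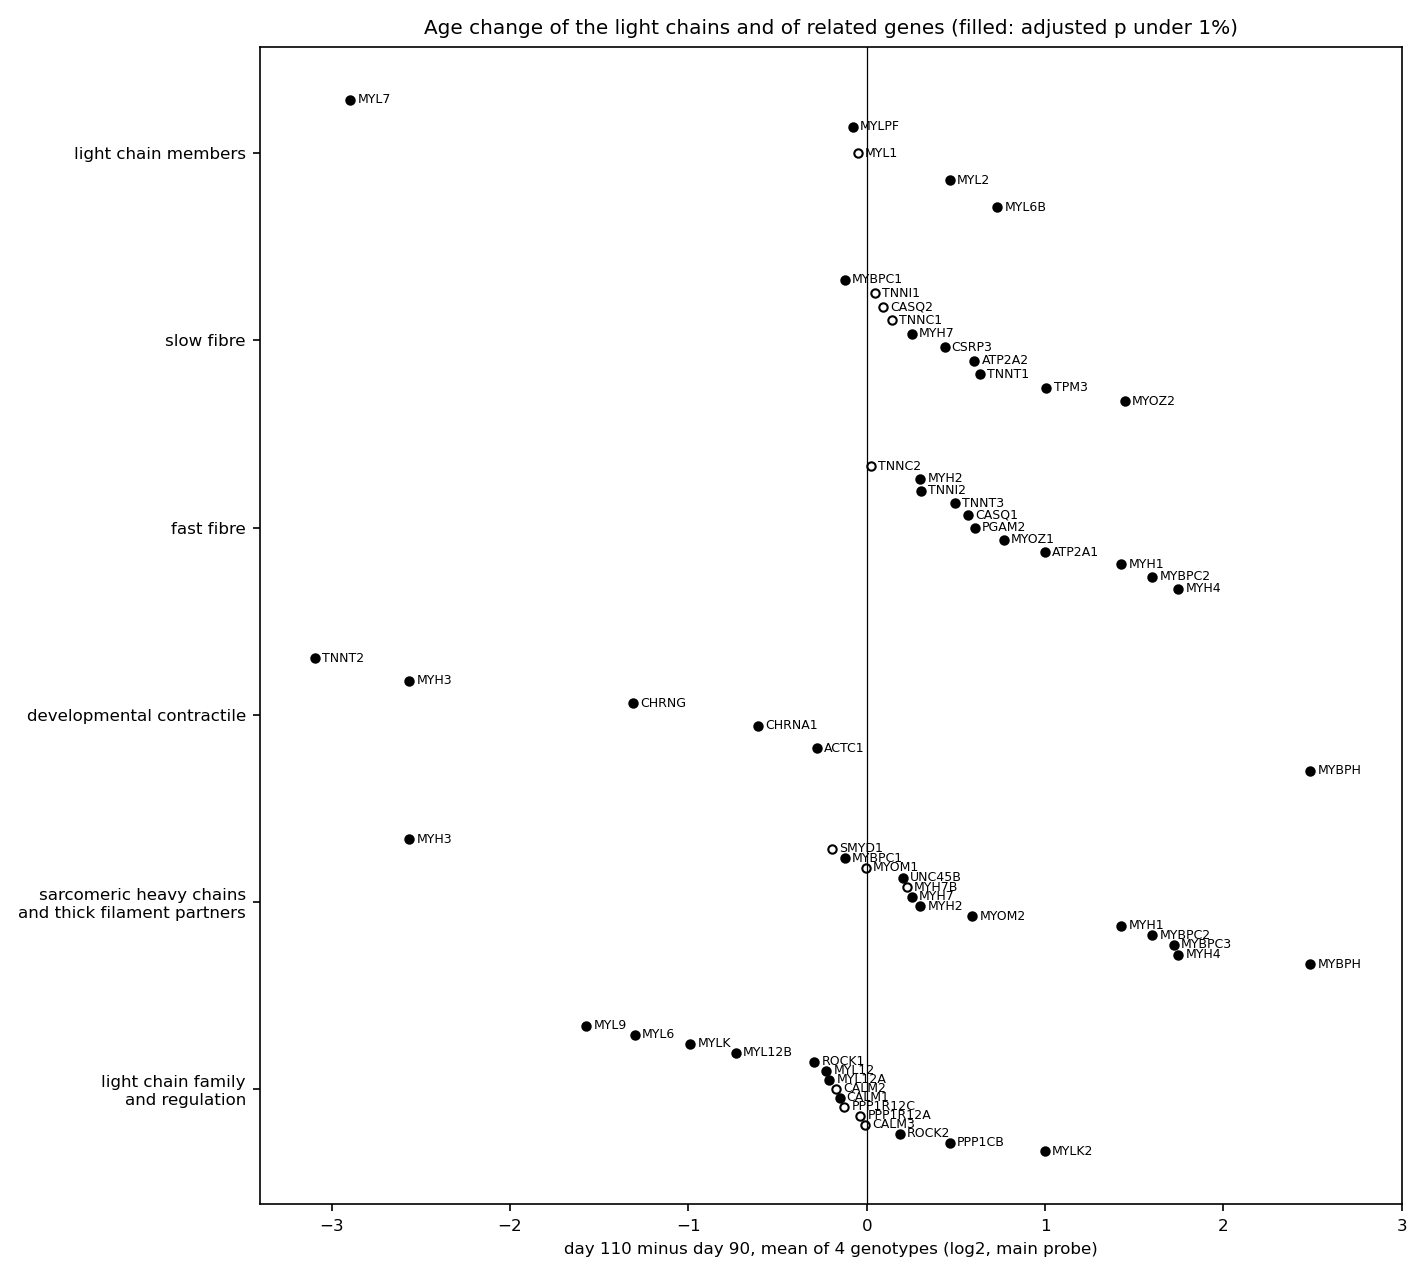
Age difference, day 110 minus day 90 on the log2 scale averaged over the 4 genotypes (horizontal axis), of the main probe of each light chain gene and of the genes of 5 lists (rows), filled where the adjusted p is under 1%. MYL7 at -2.90 lies beside TNNT2 at -3.09 and MYH3 at -2.57, and MYL1 and MYLPF lie near 0 while most fast fibre genes are higher.

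The genes whose pattern over the 8 group means was closest to each light chain were found among 10172 genes, by the root mean square difference of centred means. For MYL7 they were ARMCX2 (0.42), CRSP3 (0.48) and KCNG1 (0.50). For MYL6B they were APOM (0.08), PODXL (0.09) and STRN3 (0.09), and for the probe named MYL2 they were RUNX2, EAPP and TG, each within 0.04. For MYL1 they were RAD23B, ZNF354A and PIGC, and for MYLPF they were PRPF4B, CSNK1E and PRDM1, each within about 0.03, on patterns that are almost flat. Across the 61 fetuses, deviations of the main probes of MYL1, MYLPF, MYL2, MYL6B and MYL7 from their group means correlated in pairs at r between -0.07 and 0.28.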

How the data were processed

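Total RNA of 61 fetuses was hybridized to 1-colour arrays read with Agilent Feature Extraction 10.10.1.1 per the labels. The deposited scanner intensity is not normalized between arrays. The authors also gave a table of log2 values, which they quantile normalized and which serves here as an alternative. Its rows were matched to spots by their order in the scanner file (per-array r of 0.999826 to 0.999999 with the median spot signal).

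Background-corrected intensity was quantile normalized and log2 transformed, with control spots left out, non-uniform spots set to missing and spots of a probe averaged. Where a probe lacks a spot, the fit drops that fetus. The 8 group means, and a model of age, dam and sire with their pairwise interactions, were fitted with limma 3.58.1 in R 4.3.3 (two-sided tests). Scripts were tested on simulated data. The main probe of a gene is its brightest. From each list, up to 2 genes that rose most and up to 2 that fell most past the threshold were named, and for each light chain the 3 closest genes. No sow effect was fitted. The members and lists were chosen with earlier results of these data known. Alternatives changed the signal, background correction, scaling, filter, marked spots, slide, moderation, fetuses and probe. The number of arrays limits the precision. Listed starts are those printed in the scanner files, and no genome was used.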

Additional observations from a re-analysis of the deposited data

Results flagged for a closer look

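In 7 of 48 groups of main probes, 1 fetus lay far from the rest of its group by Dixon's test, where chance flags about 1 in 20. In LW on day 90, replicate 8 was lowest for MYL1 probe A_72_P718383 (18.01), MYL6B probe O9896 (16.00) and MLC2V probe A_72_P088476 (16.36). In MSLW on day 90, replicate 8 was lowest for MLC2V probe A_72_P088476 (15.43). For MYLPF probe A_72_P664582 on day 90, MS replicate 8 (18.73) and LWMS replicate 2 (18.69) were lowest, where the nearest fetus stood at 18.81 in both. For MYL2 probe A_72_P434159, MS replicate 2 of day 110 was highest (9.64). Over all 26 probes, 18 of 208 groups had such a fetus.

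The age difference of MYL6B was smaller in MS than in LW (-0.48) and varied among the 4 genotypes (F = 7.39), each by a test of the difference itself. The first was -0.020 under 75th percentile scaling. It also lost its limma call with the deposited log2 table (adjusted p = 0.0258), the median spot signal (0.0259) and normexp background correction (0.021). The second was not recomputed under any alternative.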

How the results depend on the processing

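Under scaling to the 75th percentile, the main probe of MYL1 changed direction to a rise of 0.49 averaged over the genotypes, 0.74 for MS, 0.55 for LWMS and 0.44 for MSLW, and that of MYLPF to a rise of 0.43, 0.57 in MS and 0.43 in LWMS, and to 0.35 for MS against LW on day 110. The mean of all MYLPF probes gave 0.035. Under that scaling the age calls numbered 24 averaged over the genotypes, 9 for LW and 24 for each of MS, LWMS and MSLW. The breed calls were 0 on day 90 and 21 on day 110, and 16 where the breeds' age differences were compared. Of the 42436 kept probes, it called 30428 for age averaged over the genotypes, 18967 for LW, 24170 for MS, 21597 for LWMS and 18696 for MSLW. Between the breeds it called 4982 on day 90 and 12642 on day 110, and 3162 where their age differences were compared. For that last comparison, the median of the 500 brightest kept probes was -0.10 after quantile normalization and 0.33 after 75th percentile scaling. For MYL6B the 75th percentile scaling gave 0.25 for MS against LW on day 90 and -0.020 for the breeds' difference in age change. The latter was -0.41 with the deposited log2 table, -0.41 with the median spot signal and -0.41 with normexp background correction. This left 0 calls in that comparison under these 3. With 1 fetus left out at a time (each MSLW fetus of day 110, and 8 that stood apart), those calls ran from 1 to 3 (3 without LW replicate 9 of day 110). With the deposited log2 table or the median spot signal, 6 probes were called for age in MS. For MYL7, LWMS against MSLW on day 110 was 1.88 with no filter and 1.84 with the slide as a block, with 0 light chain probes called under both (unadjusted p of 5.18e-05 as reported), and 1.68 to 2.15 with 1 of those fetuses left out, with 0 to 1 called. The cause of these changes was not tested.

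Apart from fetuses left out, 160 values were recomputed for the main counts and differences. Of these, 138 kept the call or stayed within 1.5 times the count, as did 618 of 638 for single genes and lists. These totals are no measure of robustness, because they pool settings of unequal reach. Leaving out the filter or the moderation keeps a difference as it is, and some comparisons held no call under either scaling. Under the percentile scaling, the age and breed counts given above moved, and both breed differences of MYL6B lost their call. A fetus left out moves a difference only in its own group. Without LW replicate 8 of day 90, MYL6B in MS against LW on day 90 was 0.32 and the breeds' difference in its age change -0.44, both still called. The 8 fetuses that stood apart were chosen after seeing the data (LW replicates 1 and 9 and MS replicate 2 of day 110, and MSLW replicates 2 and 8, LW replicate 8, MS replicate 8 and LWMS replicate 2 of day 90). The replicate numbers follow the order of the samples and pair no fetuses, so no analysis was paired by them. The slide, which does tie fetuses of different groups, was used as a block and for differences within a slide. Litters were not modelled. At the top of the signal range quantile normalization fixes the spread of MYLPF and MYL1, which limits what can be read there.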
